A study of Mus musculus with 26 samples.

Results

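The genes examined here, in brown adipose tissue (BAT), are known for carrying, activating, binding or answering to thyroid hormone, or for binding thyrotropin. They are 8 named genes of the 50686 in the deposited count table, chosen by name: the transporter Slc16a10, the deiodinases Dio1 and Dio2, the hormone-binding protein Crym, the nuclear receptors Thra and Thrb, the hormone-responsive gene Thrsp and the thyrotropin receptor Tshr. Of the 8, 6 had enough counts to be tested, among 17286 genes tested in all. Dio1 and Crym did not pass the filter on low counts.

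BAT RNA came from 26 male C57BL/6J mice of 12 to 16 weeks, each its own library. All had been held at thermoneutrality, 30 °C by the labels, for 2 weeks, and some were then moved to 5 °C for 6 h. Control littermates (WT) gave 7 mice at 30 °C and 5 at 5 °C, and fat-specific Afadin knockouts (KO) gave 7 mice at each temperature. In the KO mice a Cre under the adiponectin promoter, which is active in adipocytes of brown and white depots alike, acts on floxed Mllt4, the older name of Afdn, while other cells of the depot keep the gene. The labels give the depot as supraclavicular. The study asked how loss of the scaffold protein Afadin alters the response of BAT to cold.

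Library totals ran from 12705969 to 25732258 counts. Afdn itself did not separate the genotypes at 30 °C, where its mean was 196 CPM (counts per 1e6 counts of the scaled library) ± 21.0 (SD, n = 7) in WT and 195 ± 27.4 (n = 7) in KO, with an adjusted p of 0.99. After cold the means were 73.5 ± 4.27 (n = 5) and 58.5 ± 4.15 (n = 7) CPM, and the genotypes did not overlap. The log2 difference between KO and WT was -0.33, with an unadjusted edgeR p of 0.000884 and an adjusted p of 0.116. "KO" below means the mice labelled KO. Summed markers of skeletal muscle fibres ran from 1.03 to 7132 CPM across mice, and passed 1000 CPM in 2 of 7 WT and 3 of 7 KO mice at 30 °C, and in 2 of 5 WT and 3 of 7 KO mice at 5 °C. WT replicate 7 at 30 °C stood apart. It held 14.3% of its counts on the mitochondrial genome, against 33.9% to 40.5% in the other WT mice at 30 °C, and the highest muscle (5210 CPM) and fibroblast (780 CPM) marker sums of its group. Markers of the brown adipocyte, Ucp1 and Adipoq among them, were present in every mouse, and their sum ran from 6463 to 8203 CPM at 30 °C and from 25102 to 31717 CPM at 5 °C. Of these 8 markers, 4 were higher and 3 lower in the cold in each genotype. Of all tested genes, 65.0% in WT and 68.6% in KO were called in the cold. That share stands beside this count and the marker counts that follow. In WT, Ucp1 went from 985 to 16005 mean CPM and Fabp4 from 3759 to 7133, whereas Adipoq went from 960 to 561. Between 30 °C and 5 °C the summed markers of white adipocytes went from a range of 287 to 508 CPM to one of 65.8 to 125, with 1 of 3 lower in WT, and 2 lower and 1 higher in KO. Lep carried that sum, from 254 to 5.25 mean CPM in WT, whereas Retn had 44.3 and 41.0 in WT, not called, and rose from 26.9 to 50.0 in KO. The sum of endothelial markers went from a range of 391 to 577 to one of 576 to 783, with 3 of 4 higher and 1, Tek, lower in each genotype. That of Schwann cell markers went from a range of 44.8 to 62.0 to one of 23.9 to 41.9, with 1 of 4 lower in WT and 2 in KO. The part of these cell types in the cold responses below was not tested. Fewer cells of a type and less RNA per cell cannot be told apart in such bulk samples.

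The thyroid mostly secretes thyroxine (T4), a precursor with little activity of its own. T4 and the active hormone T3 enter cells through membrane transporters, and the type 2 deiodinase, a selenoenzyme of the endoplasmic reticulum encoded by Dio2, removes an iodine from T4 to make T3 inside the cell. BAT is known for this step: noradrenaline released in the cold raises cyclic AMP and with it Dio2 transcription, and the T3 made locally acts with cyclic AMP on genes of heat production and lipid synthesis through the receptors encoded by Thra and Thrb.

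The sequences before the starts of Dio1, Dio2 and Slc16a10 show what the cyclic AMP response element and the CCAAT box look like there. Of the deiodinase genes Dio1 and Dio2, only Dio2 passed 1 count in any library. Slc16a10 rose in the cold together with Dio2. RefSeq promoter sequences (GRCm38.p6) matched 5 of the 8 genes, Dio1, Dio2, Thrb, Thrsp and Slc16a10. The windows searched ended at the RefSeq start and were 250 bases long, and the printed stretches are 5′ to 3′ on the gene's strand, without bases that the gene annotation places inside the gene. Capitals mark the cyclic AMP response element TGACGTCA and the CCAAT box (ATTGG on the other strand).
Dio2, chr12:90739039-90739288, minus strand: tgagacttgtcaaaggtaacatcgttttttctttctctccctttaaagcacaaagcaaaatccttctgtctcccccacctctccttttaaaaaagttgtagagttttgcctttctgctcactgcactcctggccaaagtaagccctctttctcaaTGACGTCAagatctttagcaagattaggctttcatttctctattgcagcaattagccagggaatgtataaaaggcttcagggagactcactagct
Dio1, chr4:107307170-107307418, minus strand: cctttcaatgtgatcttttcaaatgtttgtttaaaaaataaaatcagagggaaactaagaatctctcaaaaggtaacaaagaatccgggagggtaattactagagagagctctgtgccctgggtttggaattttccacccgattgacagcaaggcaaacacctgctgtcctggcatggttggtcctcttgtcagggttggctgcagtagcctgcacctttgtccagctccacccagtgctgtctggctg
Slc16a10, chr10:40142259-40142504, minus strand: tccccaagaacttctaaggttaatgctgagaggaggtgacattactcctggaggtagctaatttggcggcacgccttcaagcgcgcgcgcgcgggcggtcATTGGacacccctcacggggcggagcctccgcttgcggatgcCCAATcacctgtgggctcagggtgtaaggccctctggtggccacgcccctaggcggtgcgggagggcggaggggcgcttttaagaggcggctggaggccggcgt

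The search covered both strands. The full element TGACGTCA was found in the Dio2 window alone among these genes, beginning 95 bases before the start, and 1.55% of 32851 windows of the same length held it. Its shorter core TGACG, which the full element contains on each strand, was present in 17.8% of windows, and among these genes also 56 bases before one of the Thrb starts. The nuclear receptor core AGGTCA, present in 14.0% of windows, lay 184 bases before the same Thrb start. CCAAT boxes, present in 33.8% of windows, occurred in the Slc16a10 window 150 and 108 bases before the start and in the Thrsp window at 79 and 52 bases. The matches of Thrb and Thrsp lie within the span that the gene annotation gives these genes, and those of Dio2 and Slc16a10 lie before it. The Dio1 window held no match to the 4 motifs. A match is a description of letters and says nothing of what binds there.

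Cold exposure moved these genes in both directions, and by amounts that ranged from slight to very large. In WT mice, all 6 tested genes passed at an adjusted p below 0.05 (edgeR, quasi-likelihood, Benjamini-Hochberg over all tested genes): Dio2, Slc16a10 and Tshr rose, and Thra, Thrsp and Thrb fell. The response of the whole transcriptome was broad, with 65.0% of tested genes called in WT mice, 31.6% of them higher and 33.4% lower as shares of all tested. In KO mice 5 of the 6 were called, the same genes without Thrb, against a background of 68.6% called, 33.7% higher and 34.9% lower. The median log2 fold change of the 6 was 0.22 in WT and 0.41 in KO, beside -0.01 and -0.03 over all tested genes. Neither genotype comparison called any of the 6, at 30 °C, where 0.0810% of tested genes were called, or at 5 °C, where 0.139% were. The test of the interaction, which called 1.16% of tested genes, called none of them either. At an unadjusted edgeR p below 0.05 these counts were 0 at 30 °C, 1 at 5 °C (Thrsp) and 2 for the interaction (Thrsp and Tshr). Of all 17286 tested genes, 1322, 2323 and 2804 were below it in the same comparisons. DESeq2's Wald test called 0 of the 6 in each.

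**Figure D1:**
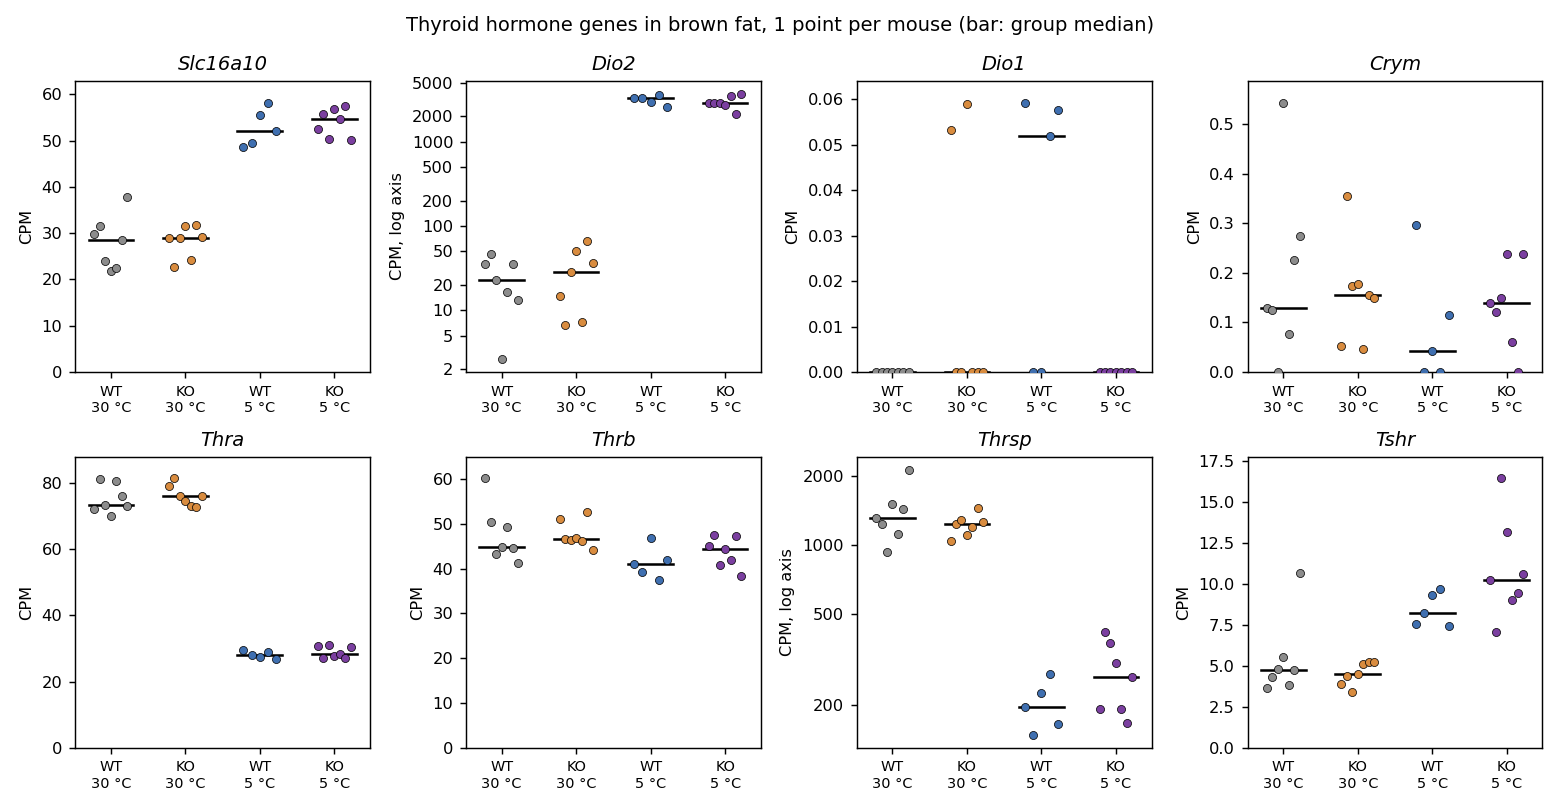
CPM of each of the 8 genes, 1 point per mouse, in the 4 groups; the bar is the group median, and the axes of Dio2 and Thrsp are logarithmic. Dio2 lay between 2.66 and 66.1 CPM at 30 °C and between 2141 and 3654 CPM at 5 °C, whereas Dio1 never passed 1 count.

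Slc16a10 encodes a membrane carrier of aromatic amino acids that also transports T3 and T4. In WT mice at 30 °C it ran from 21.8 to 37.9 CPM with a median of 28.5, and in KO mice from 22.7 to 31.8 with a median of 28.9. The WT mice at 5 °C had 48.7, 49.5, 55.4, 58.2 and 52.1 CPM, and the KO mice ran from 50.2 to 57.5 with a median of 54.7. Every mouse in the cold was above every mouse at 30 °C, and the highest at 30 °C was WT replicate 7. The log2 fold change was 0.91 ± 0.11 (SE) in WT, a 1.88-fold rise (adjusted p = 2.4e-08), and 0.94 ± 0.10 in KO, 1.92-fold (adjusted p = 3.13e-09). Between genotypes the groups overlapped at both temperatures, with log2 differences of 0.01 (95% normal interval -0.19 to 0.20) at 30 °C and 0.03 (-0.18 to 0.24) at 5 °C.

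Dio2, the activating deiodinase of BAT, changed most of the 6 tested genes in the cold. Its level at 30 °C was low and differed widely between mice, from 2.66 to 46.6 CPM with a median of 22.8 in WT and from 6.70 to 66.1 with a median of 28.1 in KO. In the cold the WT mice had 3281, 3327, 2993, 3548 and 2613 CPM, and the KO mice ran from 2141 to 3654 with a median of 2902. The temperature groups were far apart in both genotypes. The fold was 128 in WT (log2 7.00 ± 0.56 SE, adjusted p = 2.46e-11) and 98.8 in KO (log2 6.63 ± 0.54, adjusted p = 2.96e-11).

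The spread of Dio2 between mice was of another order at 30 °C than in the cold. The highest WT mouse had 17.5 times the level of the lowest at 30 °C, and 1.36 times at 5 °C. In KO mice the ratio was 9.87 at 30 °C and 1.71 at 5 °C. The coefficients of variation were 61.7% and 75.3% at 30 °C in WT and KO, and 11.4% and 17.3% at 5 °C. The lowest level of all, in WT replicate 4, still rested on 44 counts. The difference between genotypes was 0.28 on the log2 scale at 30 °C (95% interval -0.57 to 1.13, adjusted p = 0.95) and -0.09 at 5 °C (-1.0 to 0.81), and that of the cold responses was -0.37 (-1.61 to 0.87). The fit takes a single estimate of spread per gene for all groups. The interval at 5 °C therefore does not measure the spread of the 5 °C mice alone, since the wide spread at 30 °C enters it. In the gene annotation the lncRNA Gm26512 lies on the opposite strand and shares 100 bases of exon with Dio2, and the strand setting of the counting is not given in the sources used here. Gm26512 fell in the cold, from 3.14 to 0.450 mean CPM in WT.

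Dio1, the type 1 deiodinase of liver, kidney and thyroid, was essentially not detected. In all 26 libraries together it had 5 counts, in 5 mice with 1 count each, 2 of them KO at 30 °C and 3 of them WT at 5 °C. A count of 0 allows up to 3 counts, which is 0.129 to 0.232 CPM in these libraries, for counting error only. Crym encodes mu-crystallin, which binds T3 in the cytosol. It had 0 to 9 counts per library, 68 in all, and was detected in 22 of 26 mice. Its mean was 0.197 ± 0.178 CPM (SD, n = 7) in WT and 0.159 ± 0.102 (n = 7) in KO at 30 °C, and 0.0909 ± 0.124 (n = 5) and 0.136 ± 0.0872 (n = 7) at 5 °C. The 4 groups overlapped, and no difference was detectable at this depth. In exact two-sided permutation tests of log2 CPM the cold difference had a p of 0.227 in WT and 0.652 in KO.

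Thra, which encodes the receptors TRα, fell in the cold with hardly any spread between mice. At 30 °C it ran from 70.0 to 81.2 CPM with a median of 73.4 in WT, and from 72.8 to 81.4 with a median of 76.0 in KO. At 5 °C the WT mice had 29.5, 27.9, 27.4, 28.8 and 26.8 CPM, and the KO mice ran from 27.0 to 31.1 with a median of 28.3. The lowest mouse at 30 °C was thus well above the highest in the cold. The log2 fold change was -1.42 ± 0.05 (SE) in WT, 2.68-fold lower (adjusted p = 1.19e-17), and -1.40 ± 0.05 in KO, 2.63-fold lower (adjusted p = 1.44e-18). Between genotypes the log2 differences were 0.02 (95% interval -0.07 to 0.11) at 30 °C and 0.04 (-0.06 to 0.14) at 5 °C, the narrowest intervals of the 6 genes. The 3′ end of Thra shares 263 bases of exon with the oppositely oriented Nr1d1, which encodes the clock repressor REV-ERBα, and Nr1d1 fell too, with log2 fold changes of -1.32 ± 0.21 in WT and -1.24 ± 0.19 in KO. How far each gene's reads entered the other's count was not tested.

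Thrb, which encodes the TRβ receptors, changed little. At 30 °C it ran from 41.2 to 60.2 CPM with a median of 44.8 in WT, and from 44.2 to 52.6 with a median of 46.7 in KO. After cold the WT mice had 40.9, 39.2, 46.8, 37.4 and 41.9 CPM, and the KO mice ran from 38.3 to 47.5 with a median of 44.4. The temperature groups overlapped in both genotypes. The log2 fold change was -0.21 ± 0.08 (SE, adjusted p = 0.0242) in WT and -0.13 ± 0.07 (adjusted p = 0.114) in KO, and the test of the difference between these responses gave 0.08 ± 0.11 with an adjusted p of 0.77. The WT call was lost without WT replicate 1 at 30 °C (-0.14, adjusted p = 0.0733), and without replicate 17 (-0.19, 0.0596) or 19 (-0.17, 0.0791) at 5 °C. In KO the gene was called without KO replicate 14 at 30 °C (-0.18, adjusted p = 0.0315), and with scaling by library size alone (-0.45), which moved the median of all genes in that comparison from -0.03 to -0.34.

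The ratio of Thra to Thrb counts within a library does not depend on scaling. It was computed after the values of both genes had been seen, as 1 of 2 ratios. It ran from 1.20 to 1.77 in WT and from 1.38 to 1.74 in KO at 30 °C. In the cold it ran from 0.585 to 0.771 in WT and from 0.569 to 0.796 in KO. Every mouse at 30 °C had more Thra than Thrb counts, and every mouse in the cold had fewer. The genes differ in length, so a count ratio of 1 does not mark equal levels. Per kb of merged exons, the WT means at 5 °C were 6.08 CPM for Thra and 5.57 for Thrb. The difference was -1.22 on the log2 scale in WT (exact two-sided permutation p = 0.00253) and -1.27 in KO (exact two-sided permutation p = 0.000583), the smallest p that these group sizes allow, and 0.00505 and 0.00233 after Benjamini-Hochberg adjustment over the 8 ratio tests.

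**Figure D2:**
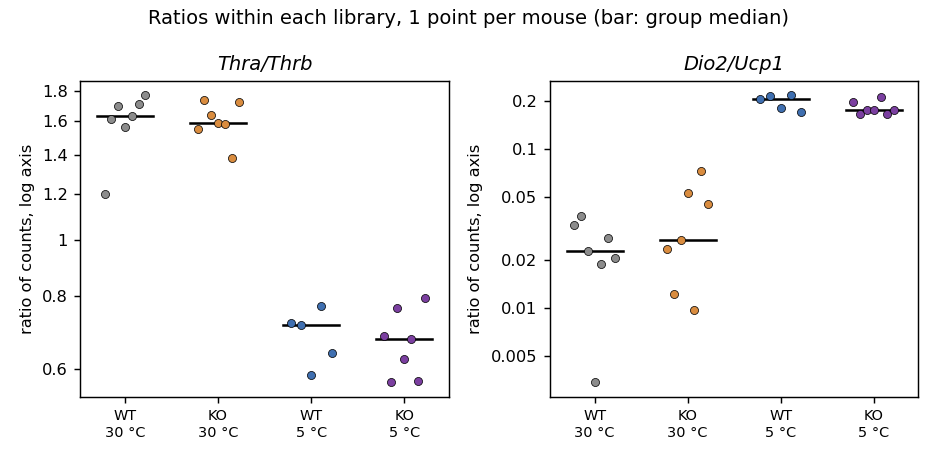
Ratios of counts within each library on logarithmic axes, 1 point per mouse, with the group median as a bar, for Thra over Thrb and for Dio2 over Ucp1. Thra over Thrb lay above 1 in every mouse at 30 °C, from 1.20 upward, and at 0.796 or lower in every mouse at 5 °C. Counts were not divided by gene length, so a ratio of 1 does not mark equal levels.

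Thrsp, also called Spot 14, is a regulator of fatty acid synthesis named for its response to thyroid hormone. It fell in the cold while Dio2 rose. At 30 °C it ran from 935 to 2135 CPM with a median of 1319 in WT, the highest being replicate 7, and from 1039 to 1452 with a median of 1241 in KO. At 5 °C the WT mice had 194, 148, 224, 272 and 165 CPM, and the KO mice ran from 167 to 417 with a median of 265. No mouse in the cold reached the level of any mouse at 30 °C. The log2 fold change was -2.79 ± 0.23 (SE) in WT, 6.89-fold lower (adjusted p = 3.89e-11), and -2.17 ± 0.20 in KO, 4.50-fold lower (adjusted p = 1.89e-10).

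The KO mice in the cold had a higher mean of Thrsp than the WT mice, but the groups overlapped. The means were 273 ± 97.2 CPM (SD, n = 7) and 201 ± 49.5 CPM (n = 5), and the log2 difference of 0.44 ± 0.21 (SE) had an unadjusted edgeR p of 0.0425 and an adjusted p of 0.356. The difference of the cold responses was 0.62 ± 0.28, with an unadjusted p of 0.0359 and an adjusted p of 0.271. Without WT replicate 7 at 30 °C it was 0.47, and without the muscle-rich mice, those with over 1000 CPM of summed muscle markers, it was 0.20.

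Tshr encodes the receptor of thyrotropin, a receptor coupled to cyclic AMP that the thyroid shares with adipocytes. At 30 °C it ran from 3.67 to 10.7 CPM with a median of 4.76 in WT, and from 3.43 to 5.24 with a median of 4.48 in KO. In the cold the WT mice had 7.59, 8.22, 9.35, 9.72 and 7.43 CPM, and the KO mice ran from 7.07 to 16.5 with a median of 10.3. The groups were apart in KO and overlapped in WT only through replicate 7 at 30 °C, whose 10.7 CPM stood against 3.67 to 5.56 in the other 6. The log2 fold change was 0.64 ± 0.21 (SE) in WT, 1.56-fold (adjusted p = 0.00969), and 1.25 ± 0.20 in KO, 2.38-fold (adjusted p = 3.08e-06). Without replicate 7 the WT response was 0.89 (adjusted p = 3.95e-05), and with scaling by library size alone it was 0.47 and no longer called (adjusted p = 0.0955).

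The difference of the 2 Tshr responses was 0.61 ± 0.29, with an unadjusted p of 0.0446 and an adjusted p of 0.297. It fell to 0.34 without WT replicate 7 and to -0.04 without the muscle-rich mice. In the mice that remained, the response was 1.07 in WT and 1.02 in KO. The part of muscle or other tissue in the level of that library was not tested beyond these values.

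**Figure D3:**
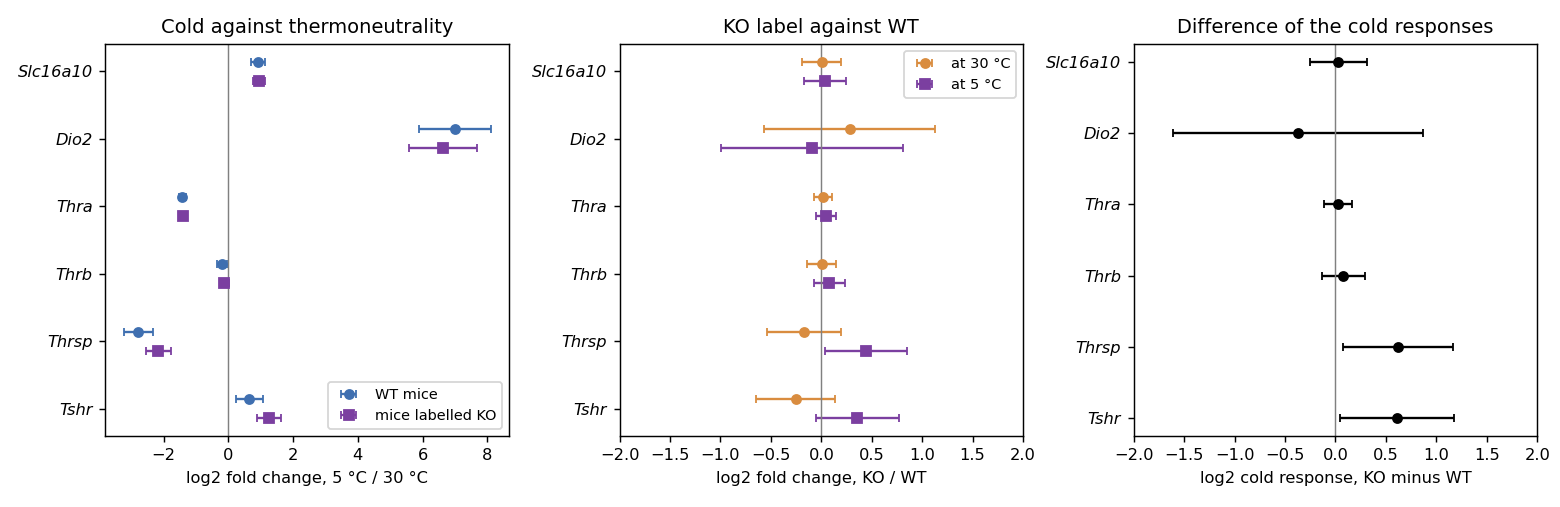
Log2 fold changes of the 6 tested genes with bars of the 95% interval, for cold in each genotype, for KO against WT at each temperature, and for the difference of the cold responses. The cold responses reached 7.00 for Dio2 and -2.79 for Thrsp in WT, and the genotype differences ran from -0.25 to 0.44.

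Without the muscle-rich mice, 6 of the 6 genes were called in WT and 5 in KO, beside 10114 and 10438 of all 17156 tested genes. Dio2 then rose by 6.70 in WT and 6.32 in KO on the log2 scale, Slc16a10 by 0.98 and 0.91. Thra changed by -1.47 and -1.45, Thrsp by -2.50 and -2.31, and Thrb by -0.28 (adjusted p = 0.0308) and -0.16 (adjusted p = 0.198).

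Compared per length, as CPM per kb of merged exons, the order of the genes turned over with temperature. At 30 °C in WT, Thrsp was the highest at 632 ± 175 CPM per kb (SD, n = 7). Thra followed at 16.3 ± 0.924 and Thrb at 6.44 ± 0.864. Dio2 at 4.24 ± 2.62 and Slc16a10 at 3.81 ± 0.782 came next, and neither Thrb and Dio2 nor Dio2 and Slc16a10 differed beyond their spread. Tshr was the lowest of the 6 at 0.895 ± 0.403. At 5 °C in WT, Dio2 was the highest at 542 ± 62.0 CPM per kb (n = 5), and Thrsp had come down to 91.7 ± 22.6. Slc16a10 at 7.18 ± 0.546 was then above Thra at 6.08 ± 0.233, which differed from Thrb at 5.57 ± 0.483 by about their spread. Tshr stayed lowest at 1.41 ± 0.171. The KO mice gave the same order at both temperatures, with Dio2 at 5.15 ± 3.87 and 508 ± 87.7 CPM per kb. The order also depends on which transcript is taken for the length. Per kb of its longest transcript Thra stood at 11.4 in WT at 5 °C, above Slc16a10 at 9.78 and Thrb at 6.65. By the same measure at 30 °C, Slc16a10 stood above Dio2, at 5.19 against 4.24 in WT and 5.21 against 5.15 in KO.

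**Figure D4:**
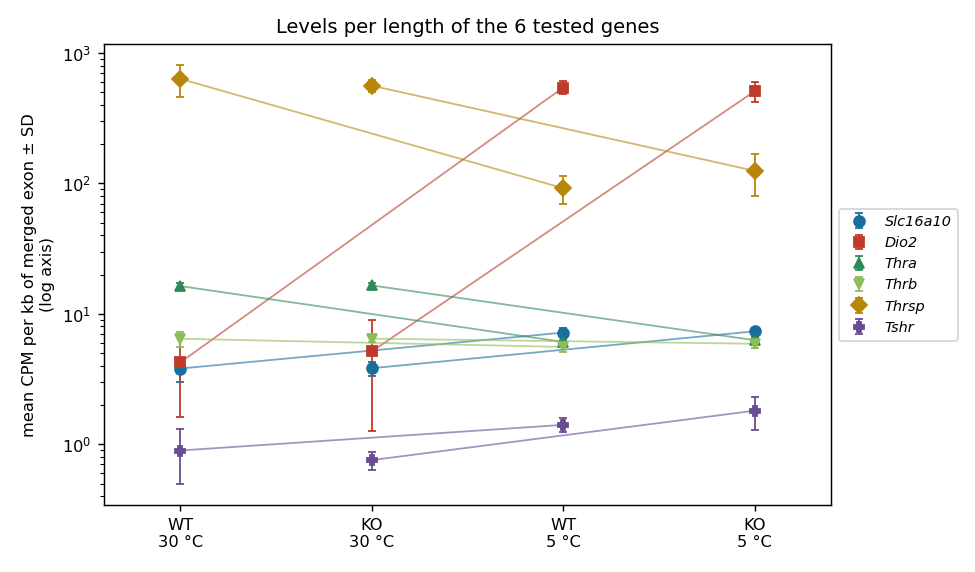
Mean CPM per kb of merged exon on a logarithmic axis, with SD as bars, of the 6 tested genes in the 4 groups, with lines joining the temperatures of a genotype. Dio2 rose from 4.24 to 542 in WT while Thrsp fell from 632 to 91.7, so that their order was exchanged.

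The other genes of the pathway numbered 45 in 8 lists, of which 38 were tested. In WT mice 19 of the 38 rose, 13 fell and 6 did not pass, and in KO mice 20 rose, 13 fell and 5 did not pass. Those shares, 32 and 33 of 38, stand beside the 65.0% and 68.6% of all tested genes. In edgeR 0 of the 38 passed in the genotype comparisons and in the interaction. At an unadjusted edgeR p below 0.05 the counts were 3 at 30 °C, 7 at 5 °C and 4 for the interaction. The same counts over all 17286 tested genes were 1322, 2323 and 2804. DESeq2's Wald test called 0 at either temperature and 1 for the interaction, Acaca (0.93, adjusted p = 0.043). With scaling by library size alone, 17 rose and 14 fell in WT, and 14 rose and 14 fell in KO, where the sign of 4 changes turned, those of March6, Eefsec, Tbl1x and Gps2. With upper-quartile factors, another scaling, 17 rose and 16 fell in WT, and 17 rose and 13 fell in KO.

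Of 4 other transporters of thyroid hormone tested, 3 rose and 1 fell in WT, and 3 rose and 0 fell in KO. The 3 that rose belong to the amino acid system L. Slc3a2, the heavy chain of that system, went from 26.2 to 293 mean CPM in WT (log2 3.48 ± 0.08 SE), and by the same 3.48 in KO. Slc7a8 and Slc7a5, its light chains, rose by 3.59 and 3.17 in WT and by 3.71 and 3.33 in KO. Slc7a5 was low, going from 0.586 to 5.36 mean CPM in WT. Slc7a8 went from 2.47 to 29.5 mean CPM in WT, and ran from 7.59 to 57.1 CPM among the KO mice at 5 °C. Slco4a1 changed by -0.70 in WT (adjusted p = 0.0379) and by -0.29 in KO, which did not pass.

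Of 4 tested genes that act on the stability of the Dio2 protein, 3 rose and 1 fell in each genotype. March6, encoding a ubiquitin ligase that marks the enzyme for breakdown, changed by 0.22 in WT and 0.18 in KO. It was called in neither genotype with library size alone (0.10 and -0.15) or with upper-quartile factors (0.12 and 0.02), nor in KO without the muscle-rich mice (0.08, adjusted p = 0.253). Usp33, a deubiquitinase that reverses such marks, rose by 1.60 and 1.58, from 57.3 to 173 mean CPM in WT. Wsb1, another ligase adaptor for the enzyme, rose by 0.73 and 0.91, whereas the deubiquitinase Usp20 changed by -0.53 and -0.66. Dio3, which encodes the inactivating type 3 deiodinase, did not pass the filter.

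Deiodinases carry selenocysteine, and of 5 genes needed to insert it, 3 rose and 1 fell in WT, and 4 rose and 1 fell in KO. Sephs2, which makes the selenium donor, rose by 1.00 in WT and 0.93 in KO, Sepsecs by 0.39 and 0.40, and Secisbp2, which binds the selenocysteine insertion element of the messenger, by 0.96 and 1.05. Pstk, the kinase that acts on the selenocysteine transfer RNA, changed by -1.09 and -0.91. Eefsec had 0.19 in WT, which did not pass, and 0.28 in KO, which did. The KO calls of Sepsecs (0.09, adjusted p = 0.429) and Eefsec (-0.04, adjusted p = 0.828) were lost with library size alone, and that of Eefsec also with upper-quartile factors (0.12, adjusted p = 0.312).

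Of 7 partners and coactivators of the receptors, 3 rose and 3 fell in each genotype. Ncoa1 and Med1, coactivators that bind liganded receptors, rose by 1.33 and 1.18 in WT and by 1.17 and 1.15 in KO, while Ncoa3 and Ncoa2 changed by -0.37 and -0.47 in WT and by -0.44 and -0.57 in KO. Of the RXR partners, Rxrg rose by 0.81 and 0.73, and Rxra changed by -0.38 in WT and by -0.10, not called, in KO. Rxra was no longer called in WT without the muscle-rich mice (-0.22, adjusted p = 0.0618). With library size alone the KO call of Rxrg was lost (0.43, adjusted p = 0.0568) and Rxra was called in KO (-0.44, adjusted p = 0.0174). Rxrb had -0.08 in WT and -0.19 in KO, the former called with upper-quartile factors (-0.19, adjusted p = 0.0367) and the latter not called without the muscle-rich mice (-0.15, adjusted p = 0.227). In the corepressor complex 3 of 6 rose in each genotype, and 1 fell in WT and 2 in KO. Ncor1 had -0.04 in WT, not called except with upper-quartile factors (-0.15, adjusted p = 0.0348), and had -0.16 in KO, called. Tbl1xr1 rose by 0.98 and 1.11, and Hdac3, its histone deacetylase, changed by -0.64 and -0.65. Tbl1x changed by 0.26 and 0.16, and was called in neither genotype with library size alone (0.13 and -0.15) or with upper-quartile factors (0.16 and 0.00085). Its KO call was also lost without the muscle-rich mice (adjusted p = 0.148) and without WT replicate 7 at 30 °C (adjusted p = 0.0674). Gps2 rose by 0.43 and 0.31, and its KO call was lost with library size alone (adjusted p = 0.957).

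Of 8 textbook T3-responsive genes, 3 rose and 4 fell in each genotype. Ucp1, the uncoupling protein of heat production, rose by 4.02 ± 0.16 (SE) in WT and 4.34 ± 0.16 in KO. Gpd2, the mitochondrial glycerophosphate dehydrogenase, rose by 0.43 and 0.73, and Klf9, a direct receptor target in many tissues, by 0.95 and 1.04. Of the 4 that fell, 3 serve lipid synthesis. Fasn, fatty acid synthase, changed by -2.69 ± 0.35 in WT and -1.51 ± 0.30 in KO. Acaca, acetyl-CoA carboxylase, changed by -2.48 and -1.57, and Mid1ip1, the paralog of Thrsp, by -2.31 and -2.03. Hr, a corepressor induced by T3 in brain, changed by -1.43 and -0.74. Me1, malic enzyme, had -0.59 in WT and 0.52 in KO, neither of them called. It was called lower in WT with library size alone (-0.75, adjusted p = 0.0354) and with upper-quartile factors (-0.70, adjusted p = 0.0308), and called higher in KO without the muscle-rich mice (0.70, adjusted p = 0.0106).

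Dio2 rose by more than Ucp1. The ratio of their counts ran from 0.00340 to 0.0377 in WT and from 0.00968 to 0.0721 in KO at 30 °C, and from 0.170 to 0.216 and from 0.165 to 0.211 at 5 °C. The difference was 3.34 on the log2 scale in WT (exact two-sided permutation p = 0.00253) and 2.70 in KO (exact two-sided permutation p = 0.000583), and the groups did not overlap. Between genotypes the ratio differed by 0.51 at 30 °C (exact permutation p = 0.432) and by -0.13 at 5 °C (exact permutation p = 0.129).

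Of 3 tested adrenergic receptor genes, through which noradrenaline acts on BAT, 1 rose and 2 fell in each genotype. Adra1a rose by 1.64 in WT and 1.43 in KO. Adrb3 changed by -0.58 and -0.94, the former not called without the muscle-rich mice (-0.38, adjusted p = 0.0953), and Adrb1 by -1.46 and -1.40. Of thyrotropin and its relatives, the 4 hormone subunits Cga, Tshb, Gpha2 and Gphb5 did not pass the filter, and Gnas, the stimulatory G protein to which Tshr couples, had 0.29 and 0.50, neither called.

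**Figure D5:**
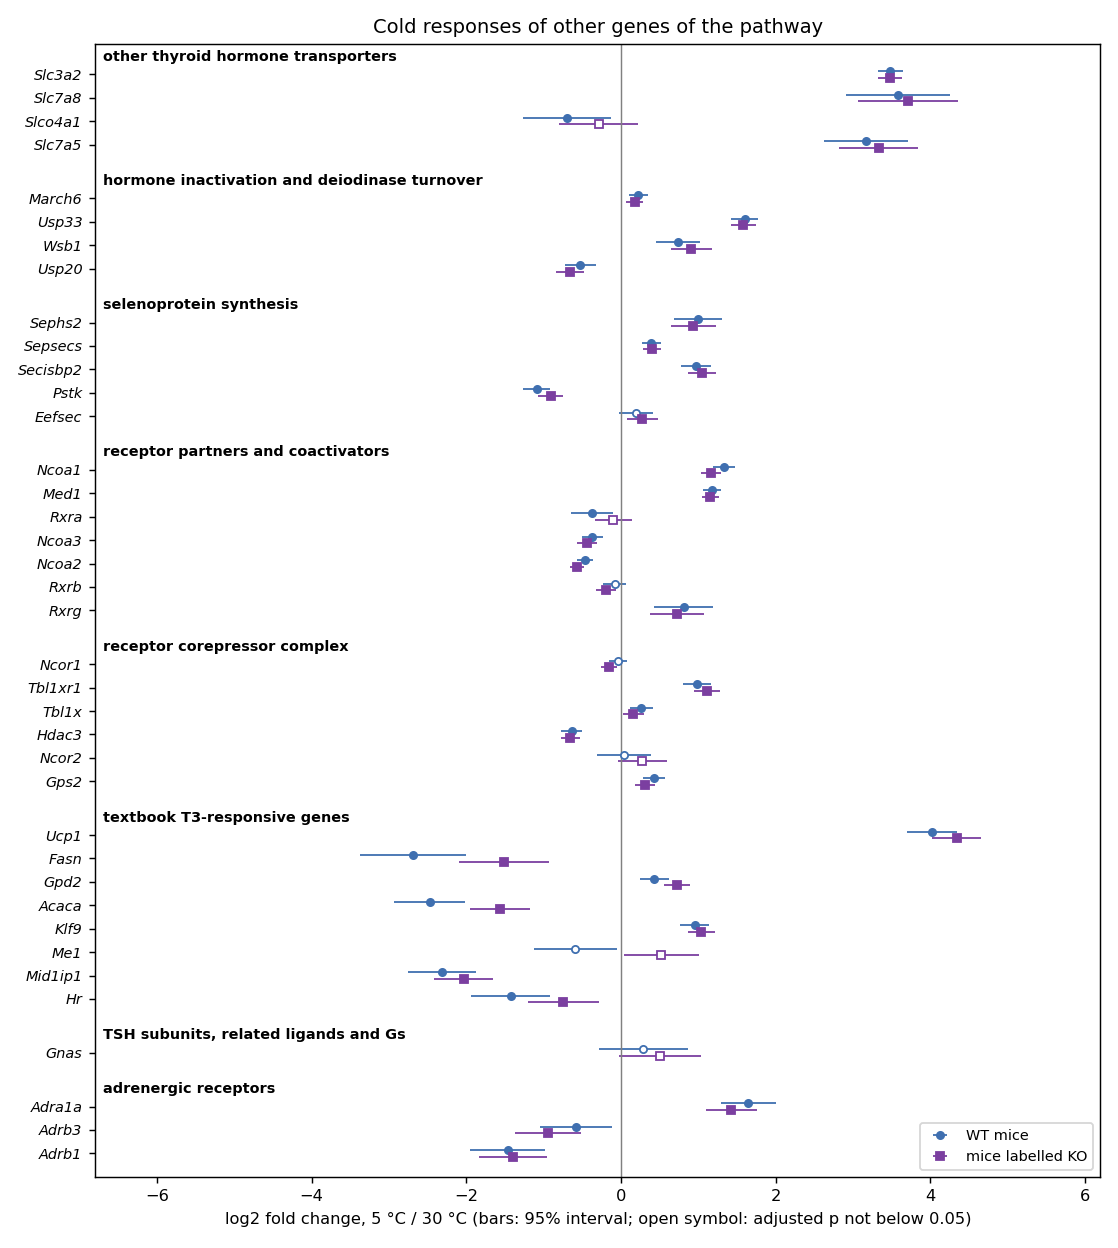
Log2 fold changes in the cold, with bars of the 95% interval, of the 38 tested genes of the 8 lists, ordered within a list by mean CPM; circles are WT mice, squares KO mice, and an open symbol did not pass the test. The largest rises were those of Ucp1 (4.02 in WT) and of the system L transporters Slc3a2, Slc7a8 and Slc7a5, and the largest falls those of Fasn, Acaca and Mid1ip1.

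The pattern among mice of the same group was described by the correlation of each gene's log2 CPM deviations from its group means over the 26 mice. Genes counted in the same mouse share its library and depth. The 3 genes most like Dio2 were Gk (r = 0.83), Clstn3 (0.83) and Noct (0.83), and those most like Slc16a10 were Sowahc (0.86), Cidec (0.82) and Leo1 (0.81). Thrsp varied most closely with Aamdc (0.88), Acss2 (0.82) and Dera (0.81). Tshr varied most closely with Qsox1 (0.89), Rxra (0.85) and Adamts2 (0.83). For Thrb the highest values were 0.74 to 0.77 and for Thra 0.64 to 0.65. Among the 6 genes themselves, Dio2 and Slc16a10 had the highest value at 0.58, Tshr and Thrsp had 0.47, and Tshr and Thrb the lowest at -0.52. WT replicate 7 at 30 °C, the highest of its group for Tshr, Thrsp and Slc16a10, was among the 26 mice. The correlations were not computed without it.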

How the data were processed

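The authors aligned reads from stranded, ribosomal-RNA-depleted total RNA libraries to mm10 with STAR 2.5.2b and deposited raw counts per gene, made with featureCounts 1.5.2 on GENCODE. Strand and multi-mapping settings are not given in the sources used here. No column of the table was left unused (0).

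Here counts were tested with edgeR 4.0.16 in R 4.3.3: genes passing filterByExpr, TMM factors, 1 term per group, all 26 mice in 1 quasi-likelihood fit, Benjamini-Hochberg adjustment over all tested genes, threshold 0.05. CPM used TMM-scaled totals, and log2 CPM a prior count of 2. Replicates were separate mice, and no 2 of them agreed within sampling noise. Single values were tested by exact two-sided permutation (SciPy 1.17.1). The procedure was tested on simulated counts. DESeq2 1.42.0, other scalings and filters, and leaving out mice were alternatives. Symbols and lengths came from GENCODE on GRCm38.

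All 8 genes and every gene of the lists could be named, in order of mean CPM, with the 3 closest genes by correlation. The members and lists were chosen with earlier results of these data known. Some genes of the lists are not reported here.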

Additional observations from a re-analysis of the deposited data

Results flagged for a closer look

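In 32 groups checked (8 genes in 4 groups), 2 held a mouse whose gap to the next exceeded Dixon's critical value, and chance alone marks about 1 group in 20. Tshr stood at 10.7 CPM in WT replicate 7 at 30 °C, with 233 counts, against 3.67 to 5.56 CPM in the other WT mice at 30 °C. The same library had the lowest mitochondrial share and the highest muscle and fibroblast marker sums of its group, whose part in the value was not tested. Crym stood at 0.355 CPM in KO replicate 9 at 30 °C, against 0.0470 to 0.177 CPM in the others, and rests on 7 counts.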

How the results depend on the processing

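The number of the 8 genes called kept within 1.5 times its value in each of the 5 comparisons under every alternative run, and the cold directions of the 6 tested genes never turned. Fits that each lacked 1 mouse called 5 to 6 of the genes in either cold comparison and 0 in the others. The signs that turned belonged to genotype differences and interactions, none of them called, and over 0.2 in size only for the Tshr interaction (0.61) and for Dio2 (0.28) and Tshr (-0.25) at 30 °C. With scaling by library size alone, KO against WT at 5 °C was -0.00486 for Thra and -0.0179 for Slc16a10, and the interaction was -0.169 for Thra, -0.125 for Thrb and -0.143 for Slc16a10. With upper-quartile factors the interaction was -0.0254 for Thra and -0.0255 for Slc16a10. Without the muscle-rich mice, an alternative chosen after seeing the data, KO against WT at 30 °C was -0.0214 for Thrb, 0.0923 for Thrsp and 0.0476 for Tshr, and the interaction was -0.0727 for Slc16a10 and -0.0420 for Tshr. Leaving out 1 mouse at a time, KO against WT at 30 °C ran from -0.0256 to 0.511 for Dio2, from -0.0197 to 0.0671 for Thrb, from -0.0479 to 0.112 for Slc16a10 and from -0.328 to 0.0284 for Tshr, and the interaction of Slc16a10 from -0.0700 to 0.0797. The cause of these changes was not tested. The background of genes called for genotype depended on the test: 14 at 30 °C, 24 at 5 °C and 200 for the interaction became 48, 197 and 488 with DESeq2's Wald test, 34, 5 and 278 with library size alone, and 13, 5 and 31 without the muscle-rich mice. At 5 °C the count was 45 with at least 10 counts in every mouse and 9 with only the groups compared, and without a filter the counts were 9, 15 and 27. Scaling by library size alone moved the median of all genes to -0.14 in the WT cold response and to 0.13 for KO against WT at 30 °C. Exact two-sided permutation tests with Benjamini-Hochberg adjustment passed in 9 of 32 comparisons of 1 gene, or 11 with library size alone. Among the cold responses called by edgeR, those of Thrb and Tshr in WT did not pass them (adjusted p = 0.114 and 0.0566). Per kb of the longest transcript in place of merged exons, levels of Thra, Thrb, Thrsp, Slc16a10 and Tshr moved by more than their SD, except that of Tshr in WT at 30 °C. No paired analysis was possible because the groups share no replicate numbers. Depth limits Dio1 and Crym, which have too few counts for any statement on change.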

Other observations

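Tg, which encodes thyroglobulin, the hormone's precursor protein in the thyroid, was counted in brown fat after cold. At 30 °C it had 0 to 3 counts per library and was detected in 2 of 7 WT and 3 of 7 KO mice. At 5 °C it had 6 to 18 counts in the 5 WT mice and 12 to 34 counts in the 7 KO mice, and was detected in all of them. The mean was 0.621 CPM in WT and 1.38 CPM in KO, and edgeR's quasi-likelihood test called the rise in both, with log2 fold changes of 3.97 ± 0.61 (SE, adjusted p = 2.34e-06) and 4.95 ± 0.51 (adjusted p = 2.22e-09). Tg passed the filter on low counts only through the mice at 5 °C, so these calls add no support to the counts above. The size of the folds rests on a base near 0 counts. The difference between genotypes at 5 °C was 1.12 ± 0.37 and did not pass (adjusted p = 0.192). Of the other thyroid follicular markers, Nkx2-1 and Foxe1 were at 0 in all mice, and the 6 markers summed to at most 2.40 CPM in any mouse. On chromosome 15 the genes Gm17140, with 112 bases of shared exon, and Sla, with none, lie on the opposite strand of Tg, and whether their reads entered its count was not tested.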
